A study of Caenorhabditis elegans with 4 samples.

Results

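The cluster described here is a crowded stretch of MRE-11 peaks on the left side of Caenorhabditis elegans chromosome III. Its members were chosen by position: every peak of the series-level list whose midpoint lay between 1.0 and 2.5 Mb on III was taken, which gave 447 of 6862 peaks on the nuclear chromosomes. That window was itself picked on peak density in these lists, the density of replicate 1 among them. This choice favours replicate 1 over replicate 2 in the window. The density of the cluster and the contrast between replicates are therefore descriptions, and no test was made on them. The peaks come from chromatin immunoprecipitation followed by sequencing (ChIP-seq) with a polyclonal rabbit antibody raised against MRE-11. All 4 samples, 2 MRE-11 ChIP replicates and 2 input DNA samples, were whole hermaphrodites of the strain fem-2(b245), a genotype that places the mutation on the same chromosome III, and were kept at 20 °C. Their stage is given as young adult with a germline, while the growth protocol describes cultures kept until gravid. No wild-type sample was analysed here. Only peak positions and peak scores were analysed, so read depth is unknown and the ChIP signal could not be set against the input.

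MRE-11 is the nuclease of the complex it forms with RAD-50. The complex holds and trims the ends of DNA double-strand breaks so that they can be repaired by recombination, and in the worm germline it is also needed for meiotic breaks to form. Worm autosomes recombine more often on their arms than in their centres, and the arms are richer in repeated sequence. fem-2 codes for a protein phosphatase that promotes male fates, sperm included, in sex determination, and b245 is a temperature-sensitive allele. The samples hold germ cells and somatic cells together, so fewer occupied cells and weaker occupancy per cell cannot be told apart in any value below.

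The 2 replicate lists differed greatly in number and width of peaks, so counts, spacing and overlap are given below for each of them. Over the nuclear chromosomes replicate 1 had 1579 peaks and replicate 2 had 4403. Outside the cluster the median peak of replicate 1 was 1411 bp wide and that of replicate 2 was 378 bp wide. The scores of the lists are the authors' own values on scales that no header names, and they were used only to rank peaks within a list.

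The cluster was dense in the series-level list and in replicate 1, and less so in replicate 2. The series-level list had 298 peaks per Mb in the window, against 97.9 per Mb on the rest of III, 67.6 per Mb on the other autosomes and 31.9 per Mb on X. Replicate 1 had 130 peaks with their midpoint in the window, or 86.7 per Mb, against 18.5 per Mb on the rest of III. It had 15.4 per Mb on the other autosomes and 9.14 per Mb on X. Replicate 2 had 116, or 77.3 per Mb, against 66.1 per Mb on the rest of III. It had 45.4 per Mb on the other autosomes and 19.8 per Mb on X. Relative to its length, which is 1.5% of the 6 chromosomes, the window held 5.50 times its share of replicate 1 peaks and 1.76 times its share of replicate 2 peaks (mean 3.63 ± 2.65, SD, n = 2). In the upper 50% of each list by score these ratios were 7.36 in replicate 1 and 1.21 in replicate 2, so the replicates stood further apart among their stronger peaks. The upper 50% of replicate 2 had 26.7 peaks per Mb in the window, against 32.6 per Mb on the rest of III. Over everything outside the cluster it had 21.9 per Mb. The top 10% of replicate 2 were denser in the window, at 6.67 per Mb, against 4.72 per Mb on the rest of III. In replicate 1 the upper 50% had 58 per Mb, against 7.73 per Mb on the rest of III. Its top 10% had 12.7 per Mb, against 1.14 per Mb.

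**Figure D1:**
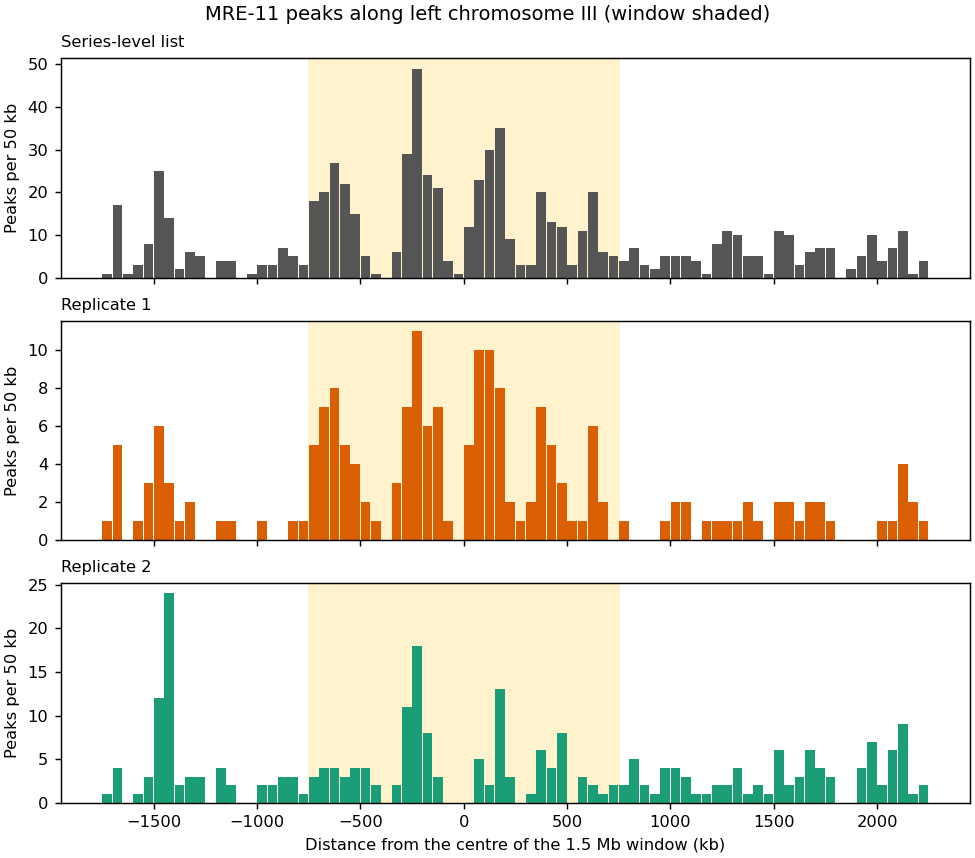
Number of MRE-11 peaks in each 50 kb window of left chromosome III (y axis, peaks per 50 kb) by distance from the centre of the 1.5 Mb window (x axis, kb), for the series-level list, replicate 1 and replicate 2 from top to bottom; shading marks the window. The series-level list reached 49 peaks in a single window and replicate 1 reached 11, and several mounds separated by nearly empty stretches are visible in both.

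Seen at 50 kb, the cluster was not one block. The 30 windows inside it held between 0 and 49 members each, with a median of 12.5. The 10 windows of the 500 kb to the left held 0 to 7 peaks with a median of 3, and the 10 to the right held 1 to 8 with a median of 4.5. With a dense window defined as one with at least 2 times the median of the rest of III, which meant 8 peaks, 19 of the 30 windows were dense, against 42 of 246 on the rest of the chromosome. The dense windows formed 5 runs, from 1.0 to 1.25 Mb with 102 members, from 1.45 to 1.65 Mb with 123, from 1.75 to 2.0 Mb with 109, from 2.1 to 2.25 Mb with 45 and from 2.3 to 2.4 Mb with 31. The run around the densest window spanned 200 kb. In replicate 1 the same definition meant only 2 peaks, and 22 of the 30 windows were dense, against 60 of 246 on the rest of III. They formed 5 runs at similar places, from 1.0 to 1.3, 1.4 to 1.65, 1.75 to 2.0, 2.05 to 2.25 and 2.35 to 2.45 Mb. With 3 times the median, 18 of the 30 were dense, against 13 of 246. In replicate 2, where the definition meant 6 peaks, the picture was different: 6 of the 30 windows were dense, against 44 of 246. With 3 times the median these counts were 3 and 9. The densest run of replicate 2 on III lay outside the cluster, from 7.4 to 7.45 Mb. Its dense windows inside the cluster made 4 shorter runs, from 1.45 to 1.6, 1.9 to 1.95, 2.1 to 2.15 and 2.2 to 2.25 Mb, with none to the left of 1.45 Mb. With 25 kb windows the densest window of the series-level list lay in another run, from 1.775 to 1.975 Mb.

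In the series-level list the left border of the cluster was sharp and the right one was not. The last window before 1.0 Mb held 3 peaks and the first one after it held 18. Replicate 1 had 1 and 5 peaks in these windows, and replicate 2 had 1 and 3. At the right end the last dense window closed at 2.4 Mb, and the next 2 windows held 6 and 5 members, close to the 4 and 7 in the first 2 windows beyond 2.5 Mb. Both outermost members were broad, high-scoring peaks. The first was III:1017256-1020649, 3394 bp wide with a series-level score of 62.48, and the nearest peak to its left, III:991236-991393, was 158 bp wide with a score of 5.97 and lay 25.9 kb away. The last was III:2496899-2501907, 5009 bp wide with a score of 69.09, which ran past the end of the window by 1907 bp. The first non-member to its right, III:2502163-2502727, was 565 bp wide with a score of 14.27 and started only 255 bp further on. A single replicate 1 peak, III:2496450-2503621, spanned both, while the replicate 2 peak over the last member, III:2496934-2501980, ended before the non-member. The 2.5 Mb limit thus falls inside the last member.

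Members lay about 1 kb apart. The midpoints of neighbouring members were a median of 1073 bp apart (quartiles 595 and 2205 bp, 446 distances), against 3924 bp on the rest of III, 4792 bp on the other autosomes and 13604 bp on X. Of those distances 210 (47.1%) were at most 1 kb, against 20.8% on the rest of III. In replicate 1 the median distance was 5882 bp in the window, against 37695 bp on the rest of III, and in replicate 2 it was 4011 bp, against 6594 bp. Measured from the end of a peak to the start of the next, the median gap between members was 606 bp and the smallest was 52 bp. These distances follow from the density that chose the window, and were not tested.

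Spacing was also very uneven. The 5 longest gaps between members were 116, 65.9, 54.6, 54.1 and 46.2 kb. The longest ran from III:1299626-1303076, with a score of 76.4, to III:1418599-1420125, with a score of 51.19, and both of these flanking peaks overlapped a peak of each replicate. It held no replicate 1 peak and a single replicate 2 peak, III:1316972-1317204, whose score of 62.11 ranked 3926 of 4403. None of the 5 gaps held a replicate 1 peak, and 2 of them held 1 replicate 2 peak each. Few could be there: in the window only 4 of 130 replicate 1 peaks and 2 of 116 replicate 2 peaks overlapped no series-level peak. The replicates thus give no separate evidence that these stretches are empty.

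**Figure D2:**
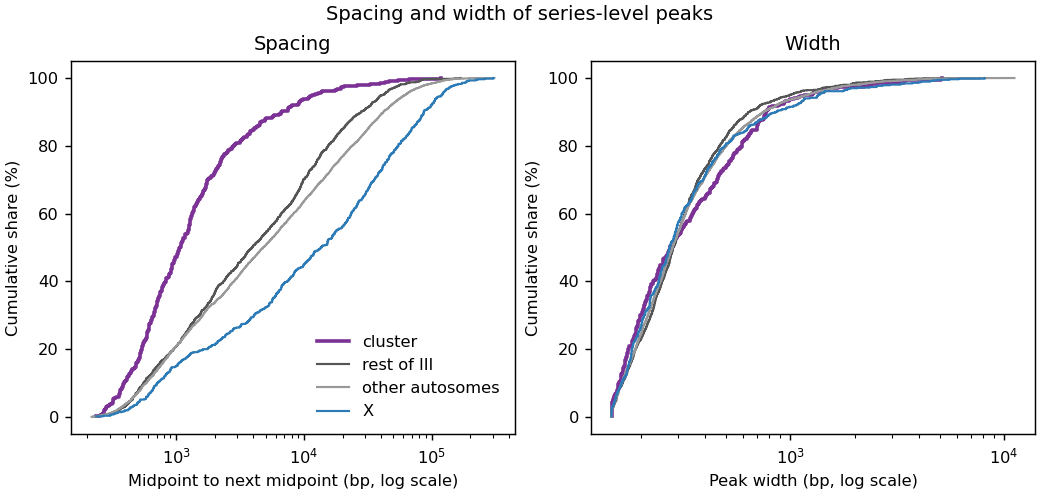
Cumulative share of series-level peaks (y axis, %) by distance from a midpoint to the next (left panel, bp, log scale) and by peak width (right panel, bp, log scale), for the cluster, the rest of III, the other autosomes and X. The spacing curve of the cluster lies left of the others, with a median of 1073 bp. The width curves have close medians of 273 to 284 bp, but widths in the cluster are more spread. Their upper quartile is 517 bp, against 417 bp on the rest of III, 441 bp on the other autosomes and 431 bp on X.

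Joined into chains in which no gap exceeds 5 kb, a limit set after the values were seen, the 447 members made 52 chains. Of these, 24 chains had 5 or more members, held 403 members (90.2%) and spanned 498 kb in all, 33.2% of the window. On the rest of III 32.8% of peaks were in chains of that size, on the other autosomes 27.9% and on X 17.7%. The longest chain was III:1467947-1575138, which packed 95 members into 107 kb. The next by members were III:1920950-1959224 with 38 in 38.3 kb, III:1815280-1853383 with 25 in 38.1 kb and III:2187720-2216707 with 21 in 29.0 kb. Within the 24 chains the members themselves covered a median of 29.6% of the bases.

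The replicates covered the chains very unequally. Replicate 1 peaks covered a median of 62.0% of the bases of these 24 chains, and replicate 2 peaks covered 4.63%. All 24 held a replicate 1 peak, and 4 held no replicate 2 peak at all. These values were not taken for chains outside the cluster, so they cannot be called particular to it. Replicate 1 peaks were the wider ones outside as well, with a median of 1411 bp against 378 bp. The largest of the 4 chains without a replicate 2 peak was III:1103486-1115396, with 13 members and 4 replicate 1 peaks that covered 70.8% of it. In the longest chain 22 replicate 1 peaks covered 72.7% and 36 replicate 2 peaks covered 11.4%.

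Members were of ordinary median width and modest score. Their median width was 275 bp (quartiles 190 and 517 bp, range 146 to 5117 bp), against 284 bp on the rest of III and 282 bp on the other autosomes. Quartiles were 207 and 417 bp on the rest of III and 202 and 441 bp on the other autosomes, so member widths were more spread. 29 members (6.49%) were 1 kb or wider, against 6.31% of the peaks outside the cluster. Their median series-level score was 6.36 (range 2 to 172.07), against 7.55 on the rest of III and 7.61 over all peaks outside the cluster. As a rank, the median member stood at percentile 42.1 of the list. Across the 447 members wider peaks tended to score higher, with a Spearman rho of 0.58, close to the 0.61 over the 6415 peaks outside.

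High scores made up a small share of the members, although per length they were not sparse. Only 13 members (2.91%) were in the top 10% of the series-level list, against 9.31% of the peaks on the rest of III and 10.6% of all peaks outside the cluster. Per length these were 8.67 peaks per Mb in the cluster, against 9.12 per Mb on the rest of III and 6.85 per Mb over everything outside. Members made up 6.51% of the list, but 1 of its 100 highest peaks, 11 of its 500 highest and 15 of its 1000 highest. When the list was cut into 5 equal groups by score, the highest group held 29 members (6.49% of them) and each of the other 4 held 94 to 115.

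Most members overlapped a peak of replicate 1 and few overlapped one of replicate 2. By at least 1 bp, 379 of 447 members (84.8%, 95% exact binomial interval 81.1 to 88.0) overlapped replicate 1, where the share of all series-level peaks was 37.7%. With replicate 1 peaks trimmed to their central 376 bp, the median width of replicate 2, the share was 29.8%. Outside the cluster it was 22.6% of peaks. A trimmed peak reaches few series-level peaks, whereas untrimmed replicate 1 peaks overlapped a mean of 2.91 in the window and 1.53 outside. The contrast was thus bound to shrink, and how much of it comes from width was not tested. The trimming was chosen after seeing the data. Only 98 (21.9%, 18.2 to 26.1) overlapped replicate 2, where the share of all series-level peaks was 58.8%. The intervals cover counting error only, and neighbouring members are not independent.

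Split by both lists at once, most members were found in replicate 1 alone. 293 members (65.5%) overlapped replicate 1 only, against 10.2% of peaks on the rest of III, 11.2% on the other autosomes and 9.89% on X, and 14.4% in the whole list. 12 members (2.68%) overlapped replicate 2 only, against 41.9% on the rest of III and 35.6% in the whole list. 86 members (19.2%) overlapped both, close to the 20.5% on the rest of III and the 23.2% of the whole list. 56 members (12.5%) overlapped neither, against 27.3% on the rest of III and 26.8% in the whole list. The window was picked with these lists in view, on the density of replicate 1 among them, which favours shares in replicate 1. The sources used here do not say whether the series-level list was made from the same reads, so these shares were not tested.

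**Figure D3:**
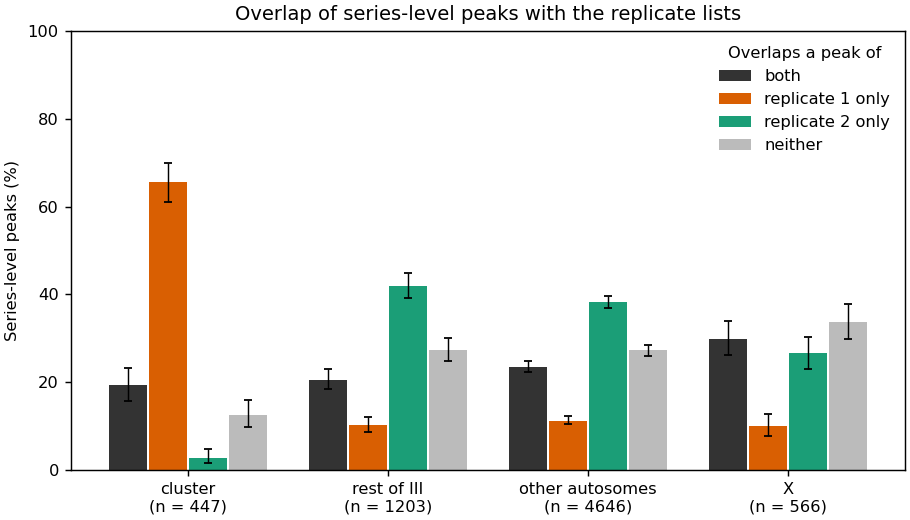
Share of series-level peaks (y axis, %) that overlapped a peak of both replicates, replicate 1 only, replicate 2 only or neither by at least 1 bp, for the cluster, the rest of III, the other autosomes and X; error bars are 95% exact binomial intervals. In the cluster 65.5% overlapped replicate 1 only, against 9.89% to 11.2% in the other groups.

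Members found in replicate 1 alone were the majority in each 500 kb of the window, but not in every 50 kb. Members that overlapped replicate 1 only made up 65.0% of the 143 members between 1.0 and 1.5 Mb, 68.8% of the 208 between 1.5 and 2.0 Mb and 59.4% of the 96 between 2.0 and 2.5 Mb. At 50 kb, 25 of the 30 windows held at least 1 such member. In 18 of the 19 dense windows the share was between 46.7% and 88.9%, and in the other, from 2.3 to 2.35 Mb, it was 1 of 11 members (9.09%). The 5 windows with none were the 3 from 1.25 to 1.4 Mb, the one from 1.7 to 1.75 Mb and the last, from 2.45 to 2.5 Mb, all with 5 members or fewer. In the 500 kb to the left of the window the share was 1 of 30 peaks (3.33%), and in the 500 kb to the right it was 6 of 44 (13.6%). With any one of the 3 parts of the cluster left out, the share ranged from 62.8% to 67.2%. Peaks in replicate 2 only made up 43.3% of those to the left and 43.2% of those to the right.

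The replicate 1 intervals that produced these overlaps were broad. Replicate 1 peaks in the window were a median of 1986 bp wide, against 1285 bp on the rest of III, and 19 of the 130 were 5 kb or wider, against 11 of 227 on the rest of III. They covered 380 kb, or 25.3% of the window, against 3.55% of the rest of III. Replicate 2 peaks covered 61.9 kb, or 4.13% of the window, against 3.30% of the rest of III. In single 50 kb windows replicate 1 coverage went up to 78.7%, and replicate 2 coverage up to 11.9%.

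**Figure D4:**
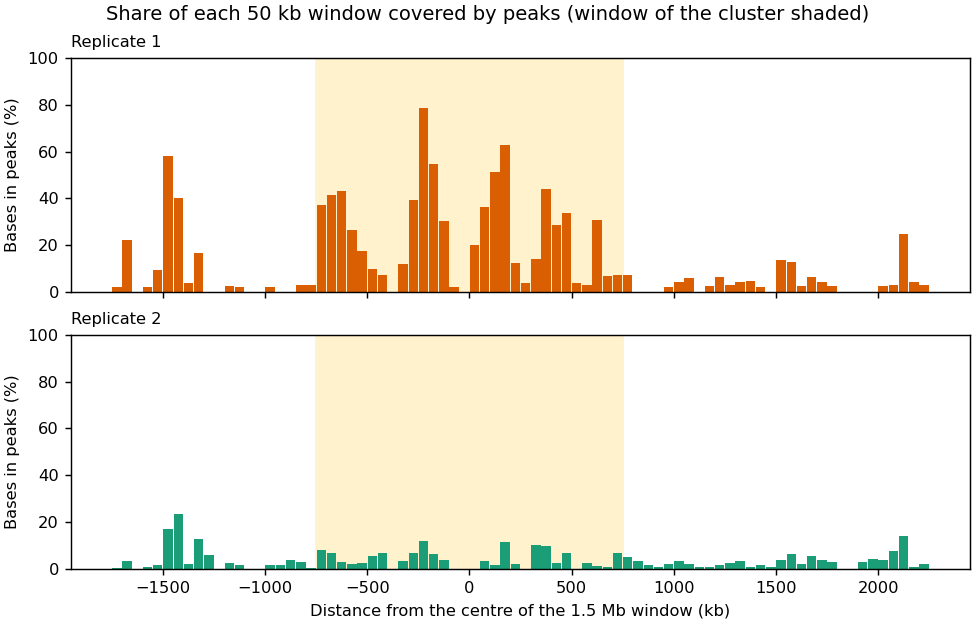
Share of the bases of each 50 kb window (y axis, %) covered by replicate 1 peaks (top) and replicate 2 peaks (bottom) by distance from the centre of the 1.5 Mb window (x axis, kb); shading marks the window. Replicate 1 covered up to 78.7% of a window inside the cluster and replicate 2 up to 11.9%.

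A broad interval can cover several narrow peaks, and many here did. 86 of the 130 replicate 1 peaks (66.2%) overlapped 2 or more series-level peaks, against 33.1% of the replicate 1 peaks outside the cluster, and 339 members (75.8%) lay in such a peak. The replicate 1 peak with the most members, III:1927494-1943116, was 15623 bp wide, had a score of 494.83 and overlapped 17 of them. Of the 11 replicate 1 peaks on any chromosome that overlapped 10 or more series-level peaks, 5 were in the cluster. With replicate 1 peaks trimmed to 376 bp as above, 19.7% of members overlapped replicate 1 only, against 4.47% of the peaks outside. The share was lower both inside and outside the cluster, as trimmed peaks reach few series-level peaks, and it was still higher inside. Replicate 1 peaks were also denser inside, so these values do not show what width contributes.

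The replicate lists also met each other differently here. Of the 130 replicate 1 peaks in the window 62 (47.7%, interval 38.9 to 56.6) overlapped a replicate 2 peak, against 82.3% of those outside the cluster and 79.5% of the whole list. Of the 116 replicate 2 peaks 102 (87.9%, 80.6 to 93.2) overlapped a replicate 1 peak, against 38.2% outside and 39.5% of the whole list. Within replicate 1, the peaks of the window had a median score percentile of 65.2, against 41.4 on the rest of III and 66.2 on X. Their share in the top 10% was 14.6%, against 6.17% on the rest of III and 29.6% on X. Within replicate 2, the peaks of the window had a median percentile of 40.4, against 49.5 on the rest of III and 50.4 on X. Their share in the top 10% was 8.62%, against 7.14% on the rest of III and 19.1% on X. Among the 68 replicate 1 peaks with no partner the one with the highest score, III:1954456-1959588, was 5133 bp wide, ranked 101 of 1579 with a score of 1699, and overlapped 6 members.

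The highest-scoring members were found in both replicates. The strongest was III:1618674-1619339, 666 bp wide, which ranked 28 in the series-level list with a score of 172.07. It lay in a replicate 1 peak with a score of 929.59 that ranked 178 and in a replicate 2 peak with a score of 1808 that ranked 156. The next members were III:1950125-1950580, 456 bp wide with a score of 86.95, and III:1080574-1080883, 310 bp wide with a score of 78.69. All 10 of the highest members overlapped a peak of each replicate. Outside the cluster 66.8% of peaks in the highest of the 5 score groups did so, but that group starts at a score of 20.5. The share among outside peaks as high as these 10 was not taken.

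Of the 10 highest members 5 were narrower than 700 bp and 5 were 1527 bp or wider. In the replicates 4 of the 5 broad ones ranked above all the narrow ones. The narrow ones ranked from 178 to 1020 in replicate 1 and from 156 to 1401 in replicate 2. An example is III:1859483-1860018, which was 536 bp wide and scored 51.97 in the series-level list, 97.77 in replicate 1 and 505.52 in replicate 2. Among the broad ones, III:1299626-1303076 (3451 bp) and III:2077537-2082653 (5117 bp, the widest member) lay in peaks with a score of exactly 3100 in both replicates, a value shared by 37 peaks of replicate 1 and 70 of replicate 2. The broad last member, III:2496899-2501907, also scored 3100 in both, and the first member, III:1017256-1020649, scored 2349 in replicate 1 and 3100 in replicate 2. The narrowest of the broad ones was III:1418599-1420125, 1527 bp wide, with a series-level score of 51.19, a replicate 1 score of 357.35 and a replicate 2 score of 1445, and its ranks of 426 and 217 lay among those of the narrow ones.

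Of the 5 widest members 2 fell outside the 10 highest. III:2110831-2115907, 5077 bp wide with a score of 47.31, lay in a single replicate 1 peak with a score of 3100 and over 4 separate replicate 2 peaks, the one with the most shared bases scoring 1767. III:1548158-1551597, 3440 bp wide with a score of 27.36, lay in a 10135 bp replicate 1 peak that overlapped 11 members, and over 2 replicate 2 peaks. Both show the same stretch read as 1 interval in replicate 1 and as several in replicate 2.

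Median score differed between the overlap classes within the cluster, although the scores of the classes overlapped. Members that overlapped both replicates had a median series-level score of 14.6 and a median width of 565 bp, and those in replicate 1 only had 5.97 and 255 bp. The 12 members in replicate 2 only had 10.3 and 281 bp. Members in neither had a median score of 4.48 and a median width of 174.5 bp, and the highest score among them was 9.37. In the highest of the 5 score groups 27 of 29 members (93.1%) overlapped both replicates, against 66.8% of peaks outside the cluster. The other 2 were III:2331256-2331623 with a score of 26.71, in replicate 2 only, and III:1426391-1426847 with a score of 20.50, in replicate 1 only.

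Peaks in replicate 1 only looked alike inside and outside the cluster in height and width. Their median score was 5.97 inside and 5.57 outside, and their median width 255 bp inside and 260 bp outside. What differed was their share at matched score: in the lowest of the 5 score groups 70.7% of members were in replicate 1 only, against 16.0% outside, and in the fourth group 50%, against 6.90%. Members in both replicates scored lower than their counterparts, with a median of 14.6, against 27.4 outside. Over the 86 members in both, the replicate scores were weakly related, with a Spearman rho of 0.13, a description across neighbouring peaks, several of which share a replicate 1 peak.

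**Figure D5:**
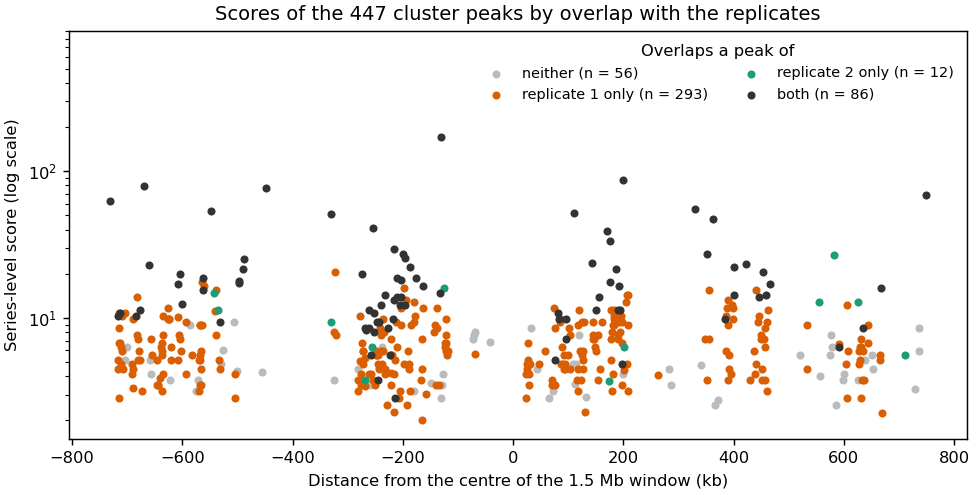
Series-level score (y axis, log scale) of each of the 447 members by distance from the centre of the 1.5 Mb window (x axis, kb), coloured by whether it overlapped a peak of both replicates (86), replicate 1 only (293), replicate 2 only (12) or neither (56). Members above a score of 30 all overlapped both replicates, and members in replicate 1 only form the bulk between about 3 and 10.

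Other places shared the pattern of the cluster on a smaller scale. Among the 191 windows of 500 kb with 10 or more series-level peaks, the median share of peaks in replicate 1 only was 5.56%, and it was 50% or more in 6 windows. The 3 windows of the cluster ranked 1, 2 and 4 of these. Rank 3 was 2.0 to 2.5 Mb on II, with 27 of 45 peaks (60%), and ranks 5 and 6 were 19 to 19.5 Mb and 19.5 to 20 Mb on V, with 39 of 68 (57.4%) and 30 of 58 (51.7%). The first 500 kb of III, separated from the cluster by the sparse stretch to its left, had 35 of 82 (42.7%) and ranked 9.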

How the data were processed

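Peaks are from MRE-11 ChIP-seq of 2 replicates, and the 2 input samples have no peak list analysed here. The authors deposited 3 peak lists on WormBase WS220, per the file headers, each with a peak score as its only value. The caller is given in the files as MACS for each replicate and MACS v2 for the series-level list. BWA and build ce10 are named in the submitters' processing notes. The control, the settings and any pooling of reads are not given in the sources used here. Separate cultures for the replicates are not stated in the labels, so their spread may be technical. No read count was at hand, so depth is unknown.

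Members were taken by midpoint, and overlaps needed 1 bp. The members, the window and the comparisons were chosen with earlier results of these data known. Named peaks were the 10 highest and 5 widest members, the peaks at the window's edges and longest gap, and the 3 highest of each replicate; others were named after their values were seen. The end of the last peak in any list stood for each chromosome's length. The 2 mitochondrial peaks were left out. The gene table used here is of WBcel235, a different assembly, so peaks were given neither genes nor sequences. No hypothesis test was made: the window was chosen on density, neighbouring peaks are not independent, and there are 2 replicates. Intervals are 95% Clopper-Pearson. Interval code was checked on planted intervals, with 200 of 200 overlaps and 60 of 60 chains found. Python 3.11.15, numpy 2.4.6, pandas 2.3.3, scipy 1.17.1 and matplotlib 3.10.9 were used.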

Additional observations from a re-analysis of the deposited data

How the results depend on the processing

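Of 39 alternative values for 14 results, 18 moved by less than the yardstick, which was 1 SD of the replicates, a 95% binomial interval of the share or median, 1 window of 50 kb for a border, or 1.5 times for a count. The upper 50% by score, which keeps the stronger peaks by construction, gave a member density of 3.68 times the length share, a median spacing of 2132 bp, a median width of 499 bp, 92.1% of members over replicate 1 (46% of peaks outside), 45.0% over replicate 2 (87.0% outside) and 50.8% over replicate 1 only (5.49% outside). Spacing from end to start was 606 bp. With the upper 50% of a replicate list, 71.8% of members overlapped replicate 1 (19.5% outside) and 8.50% replicate 2 (34.7% outside). With 50% of the member covered, 15.7% overlapped replicate 2 (58.8% outside) and 71.1% replicate 1 only (11.8% outside). By the same rule 12.8% of members overlapped both replicates, below the 19.2% at 1 bp, and the matching share outside was not taken. By midpoint, 18.1% overlapped replicate 2 (59.2% outside). All settings for the share in replicate 1 only, and the trimming and chain settings that follow, were chosen after seeing the data. Trimmed replicate 1 peaks overlapped 29.8% of members (22.6% of peaks outside), and 19.7% of members were then in replicate 1 only (4.47% outside). Both shares were bound to fall, since a trimmed peak reaches few series-level peaks, and how much comes from width was not tested. With replicate 2 cut to its 1579 highest peaks, 78.5% of members were in replicate 1 only (19.4% outside). With 25 kb windows the run around the densest window went from 1.775 to 1.975 Mb. With chain gaps of 2 and 10 kb, 67.8% and 94.0% of members were in chains of 5 or more. The density ratio ranged from 1.76 without replicate 1 to 5.50 without replicate 2. Neither is counted above, since with 2 replicates each always lies within 1 SD of their mean, and the ratio depends on which replicate is used. No paired analysis was possible because no peak list of the inputs was analysed here. Causes were not tested.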
